A study of Homo sapiens with 8 samples.

Results

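The genes described here are 10 members of the integrated stress response and the unfolded protein response, the programmes with which cells meet a shortage of amino acids or a load of misfolded protein: ATF4, ATF5, DDIT3, TRIB3, ASNS, PSAT1, PHGDH, SESN2, HSPA5 and XBP1. They were chosen by name for their role in these programmes, with earlier results of these data known. Their counts beside the shares of all genes below are therefore descriptions. A transcript cluster, the group of probes that the array reads as 1 unit, had to carry the symbol of 1 gene alone. All 10 had such a cluster, among 18417 genes measured in this way. Their RNA was measured in NCCIT cells, an established human embryonic carcinoma line derived from a germ cell tumour and cultured undifferentiated, on Affymetrix Human Gene 1.0 ST arrays from 250 ng of total RNA.

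The 4 groups were siTET1, siTET2 and siTET3, in which a pool of small interfering RNAs (siRNA) was transfected against TET1, TET2 or TET3, and siNTC, transfected with a non-targeting control siRNA. The TET enzymes oxidise 5-methylcytosine in DNA. All groups shared the line, the medium and transfection itself, and untransfected cells were not analysed here, so a response to transfection that every group shared cannot be seen. Depletion by siRNA is transient and leaves part of each transcript. Each group had 2 arrays, 8 in all, and the number of arrays limits the precision.

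When amino acids run short, or when unfolded protein gathers in the endoplasmic reticulum (ER), kinases phosphorylate the translation factor eIF2. General protein synthesis then slows, while translation of ATF4 rises. ATF4, a transcription factor, switches on genes of amino acid synthesis and transport and, under lasting stress, DDIT3 and TRIB3. The ER has further branches of its own, through ATF6 and through IRE1, an enzyme that splices the RNA of XBP1. Both lead to chaperones such as HSPA5. Much of this control acts on protein or on splicing, which a cluster value of the array does not show.

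Promoter elements of the 2 programmes are known, and 3 of these genes held a match. A script searched each promoter window of RefSeq (GRCh38.p14), on both strands, for the C/EBP-ATF response element (CARE, TGATGNAA), to which ATF4 binds, the ER stress elements ERSE (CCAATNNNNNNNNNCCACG) and ERSE-II, and the unfolded protein response element (UPRE, TGACGTGG). A CARE match lay in 3.67% of 27305 promoters, an ERSE match in 0.0806%, an ERSE-II match in 0.0549% and a UPRE match in 0.795%. Among the members, ASNS held a CARE match, and HSPA5 and XBP1 each held an ERSE match. The windows of the other 7 genes held none of the 4 letter patterns, which says nothing about binding by these factors there. The windows were short: that of ATF4 ran over chr22:39520309-39520608, around a gene start at 39520559. Sequence outside the windows was not searched. The 3 with a match are shown from 130 bases before to 19 after the start site, 5′ to 3′ on the minus strand of each chromosome, with the match in capitals. A match describes the letters and is not a measured binding site.
ASNS, CARE match at -68 to -61 from the start site, chr7:97872389-97872538: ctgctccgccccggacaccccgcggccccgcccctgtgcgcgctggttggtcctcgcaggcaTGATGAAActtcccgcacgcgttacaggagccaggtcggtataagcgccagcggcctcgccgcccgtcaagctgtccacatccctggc
HSPA5, ERSE match at -66 to -48, chr9:125241324-125241473: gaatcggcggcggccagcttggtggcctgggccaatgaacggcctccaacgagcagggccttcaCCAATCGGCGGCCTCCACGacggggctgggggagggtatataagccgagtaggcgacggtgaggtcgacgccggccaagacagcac
XBP1, ERSE match at -52 to -34, chr22:28800550-28800699: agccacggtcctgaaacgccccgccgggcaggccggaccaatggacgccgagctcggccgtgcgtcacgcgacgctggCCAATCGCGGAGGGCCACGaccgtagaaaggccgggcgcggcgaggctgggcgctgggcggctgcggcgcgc

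Across genes, the correlation was 0.9976 to 0.9989 within a group, 0.9954 to 0.9977 from one depletion to another, and 0.9893 to 0.9913 where a siNTC array was paired with a depletion array. Both siNTC arrays were therefore less like the 6 others, and every comparison with siNTC below uses these same 2. TET1 was at 62.3% of its siNTC level in siTET1, TET2 at 54.4% in siTET2 and TET3 at 47.4% in siTET3 (adjusted p = 2.9e-07, 9.74e-06 and 7.52e-05). Untargeted TETs moved as well: TET1 was at 81.4% in siTET2 (adjusted p = 0.000287) and 134% in siTET3 (adjusted p = 1.69e-05), and TET2 at 72.4% in siTET3 (adjusted p = 0.00177), so a depletion is named here by its siRNA and did not alter 1 TET alone in siTET2 and siTET3. Of 11 embryonic carcinoma markers listed, POU5F1, NANOG and TDGF1 were not tested. All 8 of the embryonic carcinoma markers measured, SOX2 and LIN28A among them, lay above background on all arrays, with summed log2 levels of 93.47 to 93.52 in siNTC, 93.26 to 93.36 in siTET1, 92.7 to 92.85 in siTET2 and 92.86 to 93.2 in siTET3. Single markers moved within these sums, with 3, 2 and 2 of the 8 higher and 2, 4 and 3 lower in siTET1, siTET2 and siTET3: PODXL changed by -0.73, -0.66 and -0.58 (SE 0.0352) and L1TD1 by 0.44, 0.35 and 0.53 (SE 0.0343). Of all genes, 15.6%, 14.4% and 13.8% were higher and 18.7%, 21.8% and 22.3% lower, by the test described below. Of the fibroblast markers 2 of 5, the collagens COL1A1 and COL3A1, were above background on every array, and of the blood cell markers 0 of 4. Fibroblast markers summed to 25.47 to 25.53 in siNTC, 24.77 to 25.02 in siTET1, 24.6 to 25.08 in siTET2 and 25.05 to 25.53 in siTET3, with DCN and LUM below background. In bulk RNA, fewer cells of a kind and less RNA per cell cannot be told apart.

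RNA of most of the stress genes was lower in each of siTET1, siTET2 and siTET3 than in siNTC. In each comparison a gene is called past the test at an adjusted p under 0.05 (limma, Benjamini-Hochberg over all 18417 genes). In siTET1, 7 of the 10 genes were lower and 0 higher than in siNTC, where 18.7% of all genes were lower and 15.6% higher. In siTET2, 8 were lower and 0 higher, against 21.8% and 14.4% of all genes. In siTET3, 8 were lower and 0 higher, against 22.3% and 13.8%. The 6 genes lower in all 3 comparisons were ATF5, DDIT3, TRIB3, ASNS, PSAT1 and XBP1, a pattern that 13.8% of all genes had. The median log2 change of the 10 genes was -0.359, -0.34 and -0.246 in siTET1, siTET2 and siTET3, and that of all genes -0.031, -0.039 and -0.017.

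In 7 of the 10 genes, all but ATF4, PHGDH and HSPA5, each of the 6 depletion arrays lay below both siNTC arrays, as in 24.5% of all genes. The changes were mostly small. PSAT1 was at least 1.5-fold lower in all 3 depletions and ASNS in siTET2, while 2.93%, 3.76% and 4.16% of all genes were past the test and lower by that much in siTET1, siTET2 and siTET3. The counts depended on single arrays. Without siNTC replicate 1 they were 4, 5 and 5 for siTET1, siTET2 and siTET3, without siTET2 replicate 2 the siTET2 count was 4, and without siTET3 replicate 1 the siTET3 count was 4. In these fits the lone array left in a group was assumed to vary like the other groups. Leaving out an array also lowers the precision for every gene. The shares of all genes in these fits are not given here, so the loss is not particular to the 10 genes. The deposited arrays leaned towards lower genes: 54.6%, 60.1% and 61.9% of all calls in siTET1, siTET2 and siTET3 were lower, and 49.0%, 49.6% and 49.5% after quantile normalization. With that normalization 7, 6 and 6 of the 10 genes were lower, and 17.1%, 18.0% and 18.5% of all genes. ATF4 was then higher in siTET2 (0.13, adjusted p = 0.00762).

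**Figure D1:**
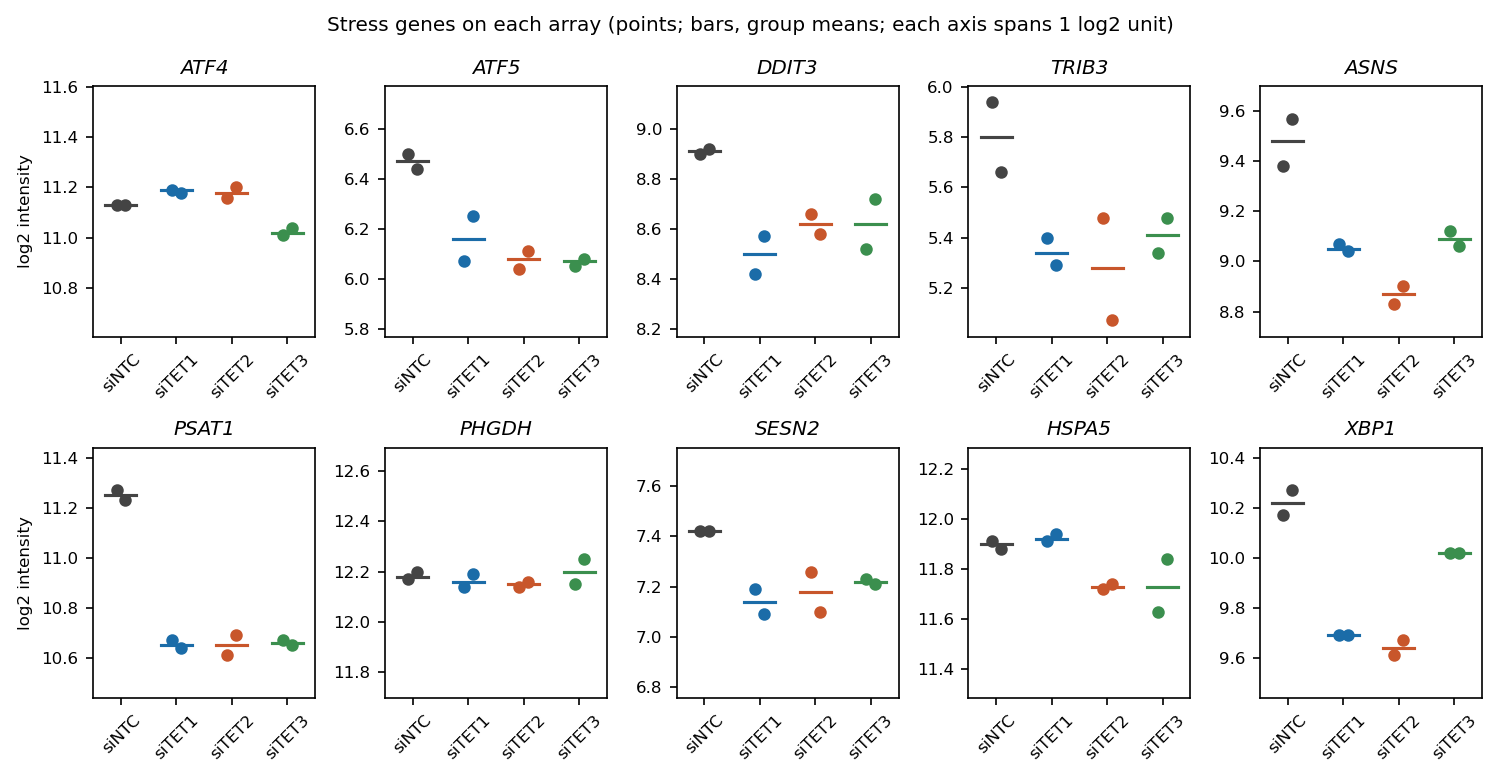
Log2 intensity (vertical axes, each spanning 1 log2 unit) of the 10 genes on each array (points) of the 4 groups, with group means as bars. In ATF5, DDIT3, TRIB3, ASNS, PSAT1, SESN2 and XBP1 all 6 depletion arrays lie below both siNTC arrays, while the PHGDH group means stay between 12.15 and 12.20.

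The transcription factors came first in this order of roles. ATF4 (chr22:39520559-39522686), the central factor of the response, was at a log2 intensity of 11.13 on both siNTC arrays, 11.19 and 11.18 in siTET1, 11.16 and 11.20 in siTET2, and 11.01 and 11.04 in siTET3. The siTET3 arrays were thus the lowest, and the siTET1 and siTET2 arrays lay slightly above siNTC. ATF4 RNA was at 92.8% of siNTC in siTET3 (95% confidence interval 88.0% to 97.8%, adjusted p = 0.029), a call lost under quantile normalization (-0.04, adjusted p = 0.447), without either siNTC array (adjusted p = 0.0747 and 0.0727) and without siTET3 replicate 1 (adjusted p = 0.106). In siTET1 it was at 104% (98.4% to 109%) and in siTET2 at 103% (98.1% to 109%), neither past the test. A second, dimmer ATF4 cluster moved differently: it was at 9.451 and 9.149 in siNTC, 9.604 and 9.475 in siTET1, 9.729 and 9.732 in siTET2, and 9.373 and 9.569 in siTET3. Every array of siTET1 and siTET2 exceeded siNTC in that cluster, and siTET3 overlapped it. Its log2 change was 0.43 in siTET2 (adjusted p = 0.00166) and 0.17 in siTET3 (adjusted p = 0.154). The sign was that of the brighter cluster in siTET2 and opposite to it in siTET3. The direction of ATF4 in siTET3 thus rests on which probes are read.

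ATF5 (chr19:49928906-49933935), a factor related to ATF4 and likewise controlled through translation, was at 6.50 and 6.44 in siNTC, 6.07 and 6.25 in siTET1, 6.04 and 6.11 in siTET2, and 6.05 and 6.08 in siTET3. Both siNTC arrays were the highest of the 8. ATF5 fell to 81.0% of siNTC in siTET1 (70.1% to 93.6%, adjusted p = 0.0259), 76.2% in siTET2 (66.0% to 88.1%, adjusted p = 0.00586) and 75.9% in siTET3 (65.7% to 87.7%, adjusted p = 0.00533). The siTET1 call was lost without siNTC replicate 1 (-0.27, adjusted p = 0.121), siNTC replicate 2 (adjusted p = 0.0588) or siTET1 replicate 1 (-0.22, adjusted p = 0.219), and the siTET2 call without siTET2 replicate 1 (adjusted p = 0.0613). In siTET3 it held under each alternative run, where the 1.5-fold threshold is left aside here and for the genes below.

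DDIT3 (chr12:57516588-57520517), also known as CHOP, encodes a factor that acts in cell death under prolonged ER stress. Its log2 intensity was 8.90 and 8.92 in siNTC, 8.42 and 8.57 in siTET1, 8.66 and 8.58 in siTET2, and 8.52 and 8.72 in siTET3, with no overlap between siNTC and any depletion. DDIT3 fell to 75.0% of siNTC in siTET1 (67.1% to 83.8%, adjusted p = 0.00065), 81.8% in siTET2 (73.2% to 91.4%, adjusted p = 0.00754) and 81.7% in siTET3 (73.1% to 91.3%, adjusted p = 0.00725). The siTET1 call held under each alternative. Without siTET2 replicate 2 the siTET2 change was -0.25 (adjusted p = 0.0779), and without siTET3 replicate 1 the siTET3 change was -0.19 (adjusted p = 0.0735). The 24 nearest expressed genes on the chromosome had median changes of -0.073, -0.077 and -0.109 in the 3 depletions.

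TRIB3 (chr20:380760-397559), a pseudokinase induced by ATF4 and DDIT3 that in turn restrains them, lay close to background. It was at 5.94 and 5.66 in siNTC, 5.40 and 5.29 in siTET1, 5.48 and 5.07 in siTET2, and 5.34 and 5.48 in siTET3, against a background of 5.208 taken from olfactory receptor genes, so 1 of the 2 siTET2 arrays was not above background. TRIB3 fell to 72.8% of siNTC in siTET1 (59.1% to 89.6%, adjusted p = 0.0207), 69.5% in siTET2 (56.5% to 85.6%, adjusted p = 0.00927) and 76.2% in siTET3 (61.9% to 93.9%, adjusted p = 0.0424). These calls turned on siNTC replicate 1, the brightest array. Without it the log2 changes were -0.32, -0.38 and -0.25, with adjusted p of 0.187, 0.105 and 0.292. The siTET2 change was -0.32 (adjusted p = 0.147) without siTET2 replicate 2, and the siTET1 call was also lost without either siTET1 array (adjusted p = 0.0535 and 0.121). In siTET3 it was -0.32 (adjusted p = 0.174) without siTET3 replicate 1 and -0.29 (adjusted p = 0.135) after the shift of neighbouring genes was subtracted.

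Of the 3 enzymes of amino acid synthesis, ASNS and PSAT1 fell in every depletion and PHGDH in none. ASNS (chr7:97851677-97928441), asparagine synthetase, whose CARE match is printed above and whose start site there lies inside the gene's full span, was at 9.38 and 9.57 in siNTC, 9.07 and 9.04 in siTET1, 8.83 and 8.90 in siTET2, and 9.12 and 9.06 in siTET3. The siTET2 arrays were the lowest. ASNS fell to 74.6% of siNTC in siTET1 (67.8% to 82.1%, adjusted p = 0.000178), 65.6% in siTET2 (59.6% to 72.2%, adjusted p = 7.25e-06) and 76.4% in siTET3 (69.4% to 84.1%, adjusted p = 0.000326). All 3 calls held under every alternative run, with log2 changes of -0.52 to -0.33, -0.71 to -0.51 and -0.49 to -0.26. Neighbouring genes had medians of -0.011, -0.066 and -0.129.

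PSAT1 (chr9:78297125-78330093), phosphoserine aminotransferase, which carries out the middle step of serine synthesis, fell by nearly the same amount in every depletion. It was at 11.27 and 11.23 in siNTC, 10.67 and 10.64 in siTET1, 10.61 and 10.69 in siTET2, and 10.67 and 10.65 in siTET3. All 6 depletion arrays lay close together, well below siNTC. PSAT1 was at 66.2% of siNTC in siTET1 (62.4% to 70.2%, adjusted p = 1.8e-07), 66.0% in siTET2 (62.2% to 70.1%, adjusted p = 1.27e-07) and 66.5% in siTET3 (62.7% to 70.6%, adjusted p = 1.77e-07). Between depletions the interval of the ratio ran from 94.0% to 107%, and no such difference was past the test. The smallest size of the log2 change under any alternative was 0.52, in siTET2, and every alternative kept all 3 calls.

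PHGDH (chr1:119711934-119744215), phosphoglycerate dehydrogenase, catalyses the first step of the same pathway. It was at 12.17 and 12.20 in siNTC, 12.14 and 12.19 in siTET1, 12.14 and 12.16 in siTET2, and 12.15 and 12.25 in siTET3, so the groups overlapped in each depletion except siTET2. The ratio to siNTC was 98.7% (93.2% to 105%) in siTET1, 97.7% (92.2% to 103%) in siTET2 and 101% (95.5% to 107%) in siTET3, with adjusted p of 0.761, 0.549 and 0.789. Those intervals leave out a decrease of the size that PSAT1 had. At 0.05 log2 units, its range of group means was the narrowest of the 10 genes, and that of ASNS, at 0.61, the widest.

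SESN2 (chr1:28259518-28282491), sestrin 2, a leucine sensor that holds back the growth kinase complex mTORC1, was at 7.42 on both siNTC arrays, 7.19 and 7.09 in siTET1, 7.26 and 7.10 in siTET2, and 7.23 and 7.21 in siTET3. Every depletion array was below siNTC. SESN2 fell to 82.2% of siNTC in siTET1 (72.9% to 92.9%, adjusted p = 0.0155) and 84.6% in siTET2 (75.0% to 95.5%, adjusted p = 0.033). In siTET3 it was at 87.0% (77.1% to 98.2%) and not past the test (adjusted p = 0.0707). The siTET1 call was lost without either siNTC array (adjusted p = 0.0569 and 0.0603) or without siTET1 replicate 2 (adjusted p = 0.123), and the siTET2 call under quantile normalization (-0.20, adjusted p = 0.0851), without either siNTC array (adjusted p = 0.0981 and 0.102) or without siTET2 replicate 2 (-0.16, adjusted p = 0.277).

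Of the unfolded protein genes, both of which hold an ERSE match printed above, XBP1 fell in all 3 depletions and HSPA5 in siTET2 and siTET3. HSPA5 (chr9:125234853-125241343), the main ER chaperone, also called BiP, was at 11.91 and 11.88 in siNTC, 11.91 and 11.94 in siTET1, 11.72 and 11.74 in siTET2, and 11.63 and 11.84 in siTET3. The siTET1 arrays lay at the siNTC level and the other 4 depletion arrays below it. HSPA5 was at 102% of siNTC in siTET1 (93.9% to 110%, adjusted p = 0.777). It fell to 88.9% in siTET2 (82.2% to 96.3%, adjusted p = 0.0233) and 89.1% in siTET3 (82.3% to 96.4%, adjusted p = 0.0251). Both calls were lost under quantile normalization (adjusted p = 0.0935 and 0.0761), without the intensity trend (adjusted p = 0.12 and 0.123), and without siNTC replicate 1 (adjusted p = 0.11 and 0.113) or siNTC replicate 2 (adjusted p = 0.0593 and 0.0633). The siTET3 change was -0.06 without siTET3 replicate 1 (adjusted p = 0.269), and the siTET2 call was also lost without either siTET2 array (adjusted p = 0.131 and 0.0814).

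XBP1 (chr22:28794560-28800569), the factor of the IRE1 branch, was at 10.17 and 10.27 in siNTC, 9.69 on both siTET1 arrays, 9.61 and 9.67 in siTET2, and 10.02 on both siTET3 arrays. The groups fell into 3 levels that did not overlap, with siNTC the highest, siTET3 next, and siTET1 and siTET2 the lowest. XBP1 fell to 69.3% of siNTC in siTET1 (64.6% to 74.3%, adjusted p = 1.93e-06), 67.0% in siTET2 (62.5% to 71.9%, adjusted p = 7.64e-07) and 87.1% in siTET3 (81.2% to 93.5%, adjusted p = 0.00458). These calls held under every alternative run, with log2 changes of -0.61 to -0.48, -0.63 to -0.51 and -0.25 to -0.13. The cluster value does not separate spliced from unspliced XBP1 RNA.

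**Figure D2:**
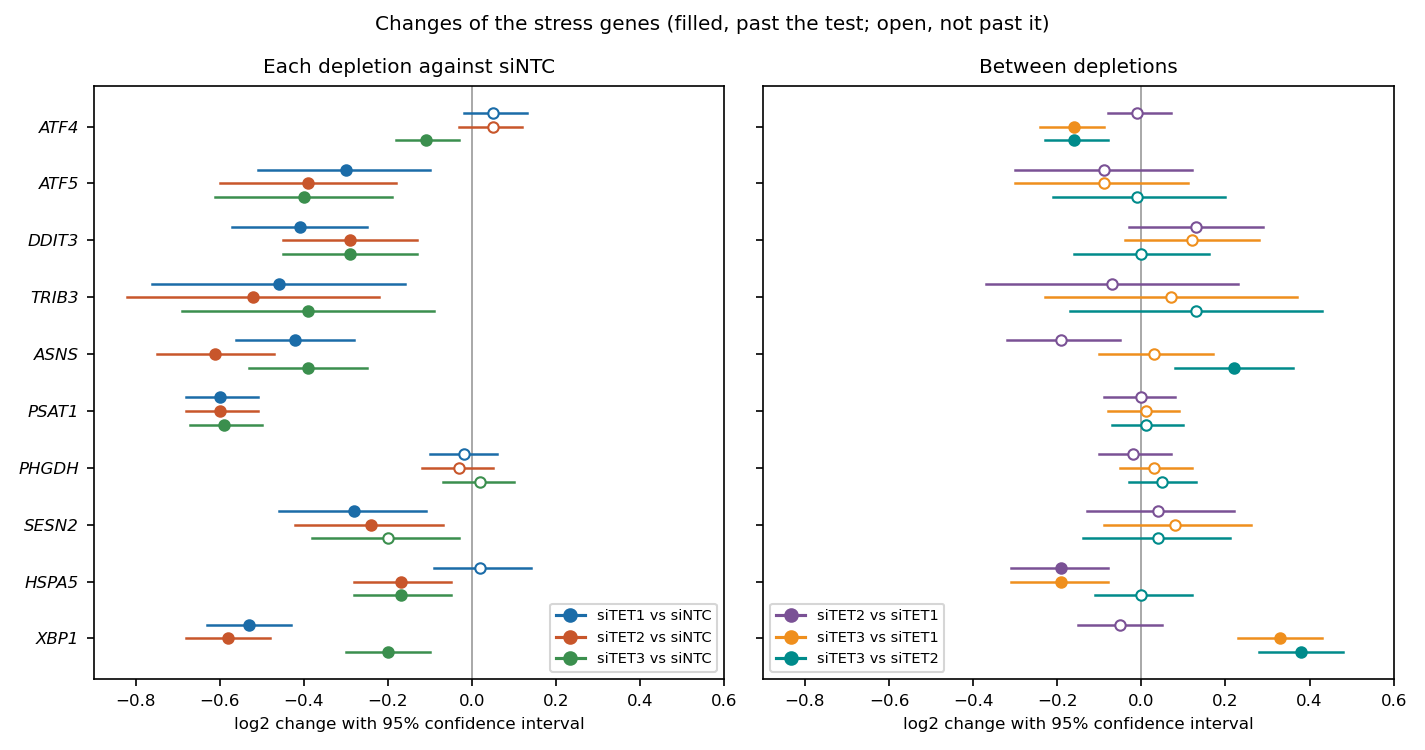
Log2 change (horizontal axes) of each gene with its 95% confidence interval, for each depletion against siNTC (left) and between depletions (right). Filled points are past the test. PSAT1 sits at -0.60 to -0.59 in all 3 depletions, whereas XBP1 sits at -0.20 in siTET3 and at -0.53 and -0.58 in siTET1 and siTET2.

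Direct comparison of the depletions asked whether the genes responded alike to the 3 siRNA pools. Between siTET2 and siTET1, 1 of the 10 genes was lower and 0 higher, against 4.13% and 2.33% of all genes. Between siTET3 and siTET1, 2 were lower and 1 higher, against 9.94% and 3.82%. Between siTET3 and siTET2, 1 was lower and 2 higher, against 7.24% and 4.94%. Lower genes made up 63.9% of all calls for siTET2 against siTET1, 72.2% for siTET3 against siTET1 and 59.4% for siTET3 against siTET2, and 46.1%, 53.4% and 52.1% after quantile normalization.

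XBP1 differed under every alternative run. It was higher in siTET3 than in siTET1 by 0.33 on the log2 scale (SE 0.0468, a ratio of 126%, 117% to 135%, adjusted p = 0.000582) and higher than in siTET2 by 0.38 (130%, 121% to 140%, adjusted p = 0.000237). Between siTET2 and siTET1 the XBP1 ratio was 96.7% (90.1% to 104%, adjusted p = 0.695).

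ASNS was higher in siTET3 than in siTET2 by 0.22 (SE 0.0639, adjusted p = 0.0407), a call lost without any 1 of the siTET1 or siTET2 arrays or siTET3 replicate 1 (adjusted p from 0.0639 to 0.269). Its level in siTET2 was 87.9% of that in siTET1 (79.9% to 96.8%), not past the test (adjusted p = 0.115). HSPA5 was lower in siTET2 than in siTET1 by a log2 change of -0.19 (SE 0.0527, adjusted p = 0.0479) and lower in siTET3 than in siTET1, also by -0.19 (adjusted p = 0.0306). The siTET2 difference in HSPA5 was lost without any 1 of the 6 siNTC, siTET1 and siTET2 arrays (adjusted p from 0.06 to 0.295), and the siTET3 difference was -0.09 without siTET3 replicate 1 (adjusted p = 0.224) and lost its call without any 1 of the siTET1 or siTET2 arrays (adjusted p from 0.0569 to 0.179). Brighter-cluster ATF4 was lower in siTET3 than in siTET1 (-0.16, SE 0.0352, adjusted p = 0.00903) and siTET2 (-0.16, adjusted p = 0.0112). In the dimmer ATF4 cluster these differences were -0.07 (adjusted p = 0.665) and -0.26 (adjusted p = 0.0769). In the brighter one, the first was not past the test without either siTET1 array (adjusted p = 0.0758 and 0.0589), nor the second without either siTET2 array (adjusted p = 0.0514 and 0.147) or siTET3 replicate 1 (adjusted p = 0.0553). Without the intensity trend neither ATF4 difference of the brighter cluster was past the test (adjusted p = 0.101 and 0.124). After the shift of neighbouring genes was subtracted, that between siTET3 and siTET2 was -0.08 (adjusted p = 0.268). ATF5, DDIT3, TRIB3, PSAT1, PHGDH and SESN2 showed no difference between depletions past the test. For TRIB3, the widest of these, the intervals of the ratio reached from 77.6% to 135%.

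The same programmes were followed in lists of further genes. Beside these counts, 18.7%, 21.8% and 22.3% of all genes were lower in siTET1, siTET2 and siTET3, and 15.6%, 14.4% and 13.8% higher. Values below are log2 changes against siNTC, past the test unless said otherwise, and a set of 3 is in the order siTET1, siTET2, siTET3. Of 11 amino acid transporters of the ATF4 pathway, 7 were lower in siTET1, 6 in siTET2 and 4 in siTET3, with 0, 2 and 2 higher and median log2 changes of -0.262, -0.178 and -0.189. The glycine transporter SLC6A9 fell in each depletion, with changes of -0.82, -0.68 and -0.91 (SE 0.0824, adjusted p = 5.85e-06, 2.67e-05 and 2.12e-06), and so did SLC43A1, a transporter of large neutral amino acids, at -0.56, -0.49 and -0.63 (SE 0.0953). SLC7A5, the light chain of another such transporter, went both ways, at -0.19 in siTET1 but 0.18 in siTET2 and 0.52 in siTET3 (SE 0.0539, adjusted p = 0.0135, 0.0171 and 6.43e-06). Its heavy chain SLC3A2 fell in siTET1 and siTET2, with -0.29 in both (SE 0.0343), and had a change of -0.09 in siTET3 (adjusted p = 0.0656). SLC1A4, which carries alanine, serine and cysteine, changed by -0.41 and -0.51 in siTET1 and siTET2 (SE 0.114). In siTET3 its change was -0.19, not past the test (adjusted p = 0.226). Its group means, from 5.34 in siTET2 to 5.85 in siNTC, lay close to the background of 5.208.

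Aminoacyl-tRNA synthetases, which load amino acids onto transfer RNA and include several ATF4 targets, had 8, 10 and 7 of 19 members lower in siTET1, siTET2 and siTET3 and 2, 1 and 2 higher. The shares of all genes were 18.7%, 21.8% and 22.3% lower and 15.6%, 14.4% and 13.8% higher. SARS1, the enzyme for serine, changed by -0.20, -0.38 and -0.28 (SE 0.0407), and WARS1, the enzyme for tryptophan, by -0.36, -0.28 and -0.39 (SE 0.0622), all past the test. NARS1, the enzyme for asparagine, fell in siTET3 (-0.35, SE 0.0441, adjusted p = 3.49e-05) and had changes of 0.01 and -0.10 in siTET1 and siTET2, not past the test. RARS1, the enzyme for arginine, fell in siTET1 and siTET2 (-0.14 and -0.34, SE 0.0426) and had a change of -0.07 in siTET3, not past the test. VARS1, the enzyme for valine, rose in siTET1 (0.25, SE 0.044, adjusted p = 0.000511) and was not past the test in siTET2 and siTET3.

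Among 13 other genes of serine, glycine and one-carbon metabolism, 4 were lower in each depletion, and 3, 1 and 0 higher. Lower genes made up 18.7%, 21.8% and 22.3% of all genes, and higher ones 15.6%, 14.4% and 13.8%. SHMT2, the mitochondrial enzyme that turns serine into glycine, changed by -0.30, -0.25 and -0.24 (SE 0.046, adjusted p = 0.000179, 0.000684 and 0.00123), and the glycine cleavage gene AMT by -0.80, -1.09 and -0.72 (SE 0.0674). TYMS, thymidylate synthase, changed by -0.26, -0.52 and -0.66 (SE 0.0498).

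The list of other ATF4 pathway factors and targets was split, with 8, 8 and 7 of 25 genes lower and 7, 6 and 4 higher, and medians of -0.013, -0.064 and 0.036. Among all genes, 18.7%, 21.8% and 22.3% were lower and 15.6%, 14.4% and 13.8% higher. CHAC1, a glutathione-degrading enzyme and a target of ATF4, changed by -1.56, -1.28 and -1.28 (SE 0.101, adjusted p = 1.42e-07, 5.89e-07 and 6.08e-07). DDIT4, an inhibitor of mTORC1 that several stresses induce, rose by 1.15, 2.01 and 1.07 (SE 0.0805), and TXNIP, which binds thioredoxin, by 0.56, 0.92 and 0.63 (SE 0.0635). The secreted glycoprotein gene STC2 rose in siTET2 (1.03, SE 0.0718, adjusted p = 2.07e-07) and had changes of -0.15 and 0.11 in siTET1 and siTET3, not past the test. Genes of this list therefore moved in both directions, and the medians of all genes were -0.031, -0.039 and -0.017. Whether ATF4 controls them in these cells was not tested.

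Upstream, the stress sensors, eIF2 kinases, phosphatases and eIF2B subunits had 6, 3 and 3 of 21 genes higher and 4, 4 and 5 lower. Higher genes made up 15.6%, 14.4% and 13.8% of all genes, and lower ones 18.7%, 21.8% and 22.3%. EIF2AK4, the kinase GCN2 that senses uncharged transfer RNA, changed by -0.30, -0.44 and -0.50 (SE 0.0691, adjusted p = 0.0041, 0.00021 and 7.63e-05), while EIF2AK1, the kinase HRI, rose by 0.46, 0.40 and 0.33 (SE 0.0367), and so did EIF2B5, a subunit of the eIF2 exchange factor, by 0.42, 0.36 and 0.26 (SE 0.0582). PPP1R15A, the phosphatase subunit GADD34 that reverses eIF2 phosphorylation, rose in siTET1 and siTET2 (0.27 and 0.63, SE 0.0804, adjusted p = 0.0189 and 4.16e-05) and had a change of 0.06 in siTET3, not past the test. Sestrins and other genes of amino acid sensing by mTORC1 had 4, 6 and 3 of 17 higher and 1, 3 and 5 lower. SEC13, a subunit of a complex that acts upstream of mTORC1, rose in siTET1 and siTET2 (0.50 and 0.36, SE 0.0728). In siTET3 the SEC13 change was 0.10, not past the test. RRAGC, a Rag GTPase, rose in all 3 depletions (0.26, 0.40 and 0.36, SE 0.0512). FNIP1, a partner of folliculin, rose in siTET2 and siTET3 (0.36 and 0.29, SE 0.047) and had a change of 0.08 in siTET1, not past the test. SESN3, a sestrin like SESN2, fell in siTET2 and siTET3 (-0.42 and -0.31, SE 0.0637) and had a change of -0.01 in siTET1, not past the test.

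Genes of protein folding moved in both directions, as all genes did. Of 24 ER chaperones and folding enzymes, 4, 7 and 7 were lower and 4 higher in each depletion, with medians of 0.012, 0.042 and -0.038. Of all genes, 18.7%, 21.8% and 22.3% were lower and 15.6%, 14.4% and 13.8% higher, so these counts lay near those shares. The ER chaperones HYOU1 and SDF2L1 changed by -0.39, -0.52 and -0.63 (SE 0.0641) and by -0.50, -0.54 and -0.36 (SE 0.12), and the prolyl isomerase gene PPIB by -0.48, -0.48 and -0.54 (SE 0.0308). ERO1A, an oxidase that drives disulfide formation, rose by 0.37, 0.57 and 0.26 (SE 0.0451). ER associated degradation had 6, 6 and 5 of 16 genes higher and 3, 4 and 5 lower. There the lectin gene OS9 changed by -0.51, -0.78 and -0.74 (SE 0.0473) and the ubiquitin ligase gene SYVN1 by -0.44, -0.37 and -0.32 (SE 0.0555), whereas SEL1L, the partner of SYVN1, rose by 0.42, 0.33 and 0.41 (SE 0.061). DERL2, a membrane protein of the degradation machinery, rose in siTET1 and siTET2 (0.15 and 0.22, SE 0.0446) and fell in siTET3 (-0.29, adjusted p = 0.000185). EDEM1 fell in siTET3 (-0.47, SE 0.111, adjusted p = 0.00436) and had changes of 0.09 and 0.13 in siTET1 and siTET2, not past the test.

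**Figure D3:**
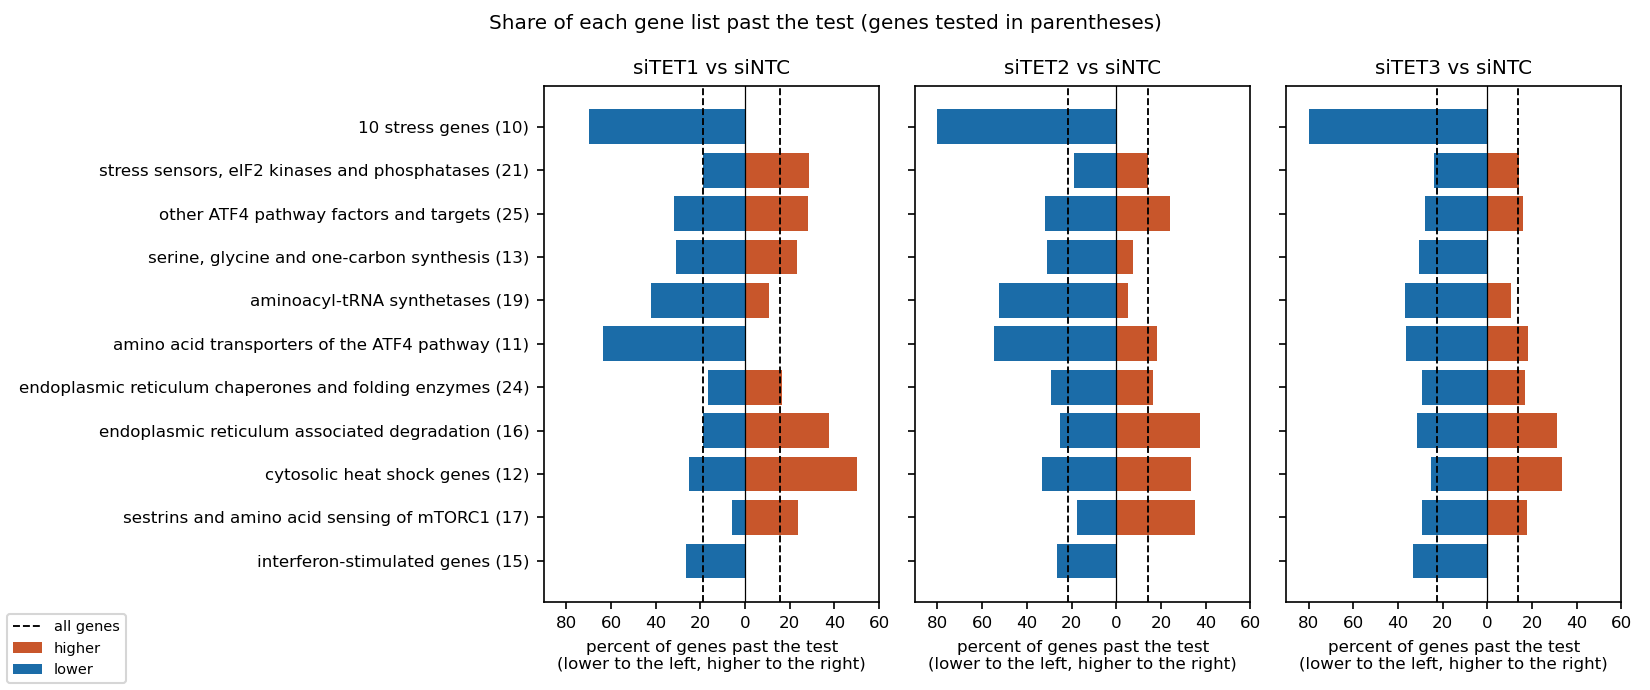
Percent of the genes of each list past the test (horizontal axes), lower to the left and higher to the right, for each depletion against siNTC, with the share of all genes as dashed lines. The 10 stress genes have 7, 8 and 8 lower and 0 higher members, and the transporters 7, 6 and 4 lower of 11, whereas the folding and degradation lists have bars on both sides.

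As a description, the genes whose values followed the members most closely were sought for the 3 members with the widest range of group means, by Pearson's r over the 8 arrays among 12748 other genes above background. For PSAT1 they were FAM136A (r = 0.999), NDUFA9 (0.998) and ATP6V0D1 (0.997), and 1380 genes had r over 0.9. For ASNS they were IDH1 (0.989), DPAGT1 (0.984) and MFN2 (0.984), with 613 genes over 0.9, and for XBP1 NXT2 (0.994), SLC3A2 (0.992) and XRCC6 (0.992), with 312. NXT2 changed by -0.46, -0.54 and -0.22 in siTET1, siTET2 and siTET3, the same order as XBP1, and FAM136A by -0.35, -0.36 and -0.35. The arrays form 4 groups, of which siNTC stands apart, so many genes share such a profile, and the r values carry no test.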

How the data were processed

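The authors deposited 1 table of log2 intensities of 8 Affymetrix Human Gene 1.0 ST arrays, 2 for each of 4 groups named from the labels. The submitters' processing notes name Partek for it, and the sources used here do not give its version or settings. Values ran from 3.13 to 14.75 over 33297 transcript clusters, of which the array annotation gave 1 symbol to 19460 (58.4%), several to 1754 and none to 12083. Only the first kind was used, with the brightest cluster per gene (769 genes had several), which left 18417 genes. By gene ID, 19429 of these clusters matched RefSeq. Background was set from 341 olfactory receptor genes, as the 95th percentile of their mean values, log2 5.208, which 12749 genes (69.2%) exceeded.

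Groups were compared with limma 3.58.1 in R 4.3.3, in 1 linear model of the 4 groups over all 8 arrays (lmFit and eBayes, with the variance prior following intensity; 4 residual and 8.55 prior degrees of freedom; two-sided). P-values were adjusted by Benjamini-Hochberg over all genes of a comparison. Errors are standard errors and 95% confidence intervals of this fit, with n = 2 arrays per group. The labels do not state that replicates came from separate cultures. The p-values then cover no more than the spread between these arrays, which may be technical. Same-numbered arrays did not deviate together in every pair of groups, so no block was used. The members and lists were chosen with earlier results of these data known. Genes named from a list were taken from those with the largest changes past the test against siNTC (up to 4) or between depletions (up to 2). Alternatives were quantile normalization, a fit to the 4 arrays compared, eBayes without the trend, a filter to genes above background, averaging of a gene's clusters, a block for replicate number, omission of each array, subtraction of the median shift of the 24 nearest expressed genes (16 for TRIB3), a 1.5-fold threshold and, chosen after seeing the data, the dimmer ATF4 cluster. Promoter sequences and coordinates came from RefSeq (GRCh38.p14). Python 3.11.15 and matplotlib 3.10.9 were used for counts and figures.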

Additional observations from a re-analysis of the deposited data

Results flagged for a closer look

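Of the 10 genes, 4 differed between depletions by a test of the difference itself, with log2 values from the fit and n = 2 arrays per group. Of all genes, 4.13% were lower and 2.33% higher in siTET2 than in siTET1. For siTET3 the shares were 9.94% and 3.82% against siTET1, and 7.24% and 4.94% against siTET2. XBP1 was higher in siTET3 than in siTET1 (0.33, adjusted p = 0.000582) and siTET2 (0.38, adjusted p = 0.000237). ATF4 in its brighter cluster was lower in siTET3 than in siTET1 (-0.16, adjusted p = 0.00903) and siTET2 (-0.16, adjusted p = 0.0112). HSPA5 was lower in siTET2 (-0.19, adjusted p = 0.0479) and in siTET3 (-0.19, adjusted p = 0.0306) than in siTET1. ASNS was higher in siTET3 than in siTET2 (0.22, adjusted p = 0.0407). Of these differences, only those of XBP1 held under every alternative run, with the 1.5-fold threshold left aside. Groups of 2 arrays are too small for a test of single outlying arrays.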

How the results depend on the processing

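Of the 30 calls of the 10 genes over 6 comparisons, 13 held under all alternatives that were run on them and kept the adjusted p as the threshold: those of ASNS, PSAT1 and XBP1 against siNTC, ATF5 in siTET3, DDIT3 in siTET1, and XBP1 in siTET3 against siTET1 and siTET2. The other 17 were lost under at least 1, most often when an array was left out. Leaving out an array lowers the precision for every gene, and shares of all genes in those fits are not given here. With each array left out in turn, the number of genes called ranged from 4 to 7 in siTET1, 4 to 8 in siTET2 and 4 to 8 in siTET3 against siNTC, and from 0 to 1 (siTET2 against siTET1), 1 to 3 (siTET3 against siTET1) and 1 to 3 (siTET3 against siTET2). Without the intensity trend it was 5 in siTET3 against siNTC and, in the same order between depletions, 0, 1 and 1. For siTET2 against siTET1 it was also 0 under quantile normalization or with the neighbours' shift subtracted, and 2 in the fit of those 4 arrays alone. With a 1.5-fold threshold the counts were 1, 2 and 1 against siNTC and 0, 0 and 0 between depletions. ATF4 in siTET3 against siNTC turned from -0.11 to 0.032 (adjusted p = 0.699) when its 2 clusters were averaged and to 0.171 (adjusted p = 0.154) with the dimmer cluster, an alternative chosen after seeing the data. In siTET2 it rose under quantile normalization (0.13, adjusted p = 0.00762), after averaging its clusters (0.24, adjusted p = 0.00388) and in the dimmer cluster (0.43, adjusted p = 0.00166). Apart from the choice of ATF4 cluster, the causes were not tested. With the replicate number as a block the counts were 7, 8, 8, 1, 3 and 3, as without it. Deviations of same-numbered arrays correlated at -0.043 to 0.238, the highest between siTET1 and siTET3. The labels do not say what same-numbered arrays share. Signal limits TRIB3, which lay near background.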

Other observations

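Log2 changes against siNTC in siTET1, siTET2 and siTET3 follow for 2 other protective programmes. Of 15 interferon-stimulated genes, which cells switch on when they sense foreign RNA, 4, 4 and 5 were lower and 0 higher in siTET1, siTET2 and siTET3, where 18.7%, 21.8% and 22.3% of all genes were lower, and 5 of the 15 lay above background. Among those called, IFIT1 was above background on 1 array and IFIT3 on 0. IFI6 changed by -0.44, -0.71 and -0.39 (SE 0.102, adjusted p = 0.00431, 0.000105 and 0.00844), and RIGI, an RNA sensor, by -0.34, -0.27 and -0.36 (SE 0.0833).

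Of 12 cytosolic heat shock genes, 6, 4 and 4 were higher, where 15.6%, 14.4% and 13.8% of all genes were, and 3, 4 and 3 lower, against the shares of lower genes given above. The heat shock factor HSF1 changed by -0.31, -0.34 and -0.46 (SE 0.0867) and the co-chaperone BAG3 by -0.26, -0.32 and -0.30 (SE 0.0634), while the small heat shock protein gene HSPB1 rose by 0.32, 0.24 and 0.21 (SE 0.0431) and DNAJB1 by 0.27, 0.24 and 0.23 (SE 0.0538).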
